A study of Schizosaccharomyces pombe with 24 samples.

Results

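RNA polymerases I, II and III are large enzymes built from a catalytic core of many subunits, and the 28 genes described here are those of the 5195 genes in the deposited tables whose pathway annotation held the KEGG term for RNA polymerase (ko03020). The deposited descriptions placed 5 of them in polymerase I only (*nuc1*, *rpa2*, *rpa12*, *rpa43* and *rpa49*), 7 in polymerase II only (*rpb1*, *rpb2*, *rpb3*, *rpb4*, *rpb7*, *rpb9* and *rpb11*) and 9 in polymerase III only (*rpc1*, *rpc2*, *rpc11*, *rpc25*, *rpc31*, *rpc34*, *rpc37*, *rpc53* and *rpc82*). Another 2 belonged to polymerases I and III (*rpc19* and *rpc40*), and 5 to all 3 polymerases (*rpb5*, *rpb6*, *rpb8*, *rpb10* and *rpc10*). The term did not hold *ker1*, *rpa34* and *rpc17*, which are also described as polymerase subunits in the tables and are given apart from the members.

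Polymerase I transcribes the large ribosomal RNA precursor, polymerase II transcribes mRNAs and many small RNAs, and polymerase III transcribes tRNAs, the 5S rRNA and other short RNAs. Each enzyme has its own large catalytic pair of subunits, and the small common subunits are built into every enzyme, so that their mRNAs serve all of them at once. In budding yeast, genes for polymerase I and III subunits are known to be expressed together with ribosome biogenesis genes and to follow growth and nutrient supply.

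The study examined point mutations of H2B found in human cancers in *S. pombe*, where a single gene, *htb1*, encodes this histone. It centred on DNA repair and H2B monoubiquitination, and sequenced RNA to ask whether genomic instability of the mutants might come from changed gene expression. Poly(A)-selected RNA of 24 libraries was sequenced, 3 for each of 8 genotypes: WT, *htb1-G52D*, *htb1-P102L*, *htb1-E75Q*, *htb1-D67N*, *htb1-E112K*, *htb1-E34K* and a strain labelled Set1_del. By the study's strain list, WT was h+ *ade6-M216*, the mutants *htb1-E75Q*, *htb1-D67N*, *htb1-E112K* and *htb1-E34K* were h+ *ade6-M210* with a *kanMX6* marker at *htb1*, and *htb1-G52D* and *htb1-P102L* were h- with an *ade6* allele that is not given and no marker. All of them carried *leu1-32* and *ura4-D18*. Set1 is the histone H3K4 methyltransferase, and its strain is given with 2 different numbers in the study, of which the listed one is h+ *leu1-32 ura4-D18 set1Δ::kanMX6*. Each mutant thus differs from WT in the *kanMX6* marker or the mating type, and where it is given also in the *ade6* allele, so that the H2B change and these cannot be told apart. The replicates are described as independent biological repeats. Every change described here is one of mRNA share in poly(A)-selected RNA, where fewer transcripts in each cell and a different makeup of the culture cannot be told apart.

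Library totals lay between 18935513 and 28181070 counts, of which the members took between 0.0721% and 0.146%. The libraries labelled Set1_del held more counts of *set1* (336 to 412) than WT (20 to 32), so that the direction of each result for them rests on the label alone. Counts of *ura4*, which the strain list gives as deleted, stood at 865 in WT replicate 3, at 1382 in *htb1-G52D* replicate 1 and at 712 in *htb1-P102L* replicate 1, and at 0 to 2 in each of the others. Counts of *mat1-Mc*, a gene of the minus mating type, stood at 103 in WT replicate 3 and at 0 in replicate 3 of both *htb1-G52D* and *htb1-P102L*, which goes against the mating types in the list. The *htb1* gene itself had 88025 to 238225 counts in the libraries of *htb1-E75Q*, *htb1-D67N* and *htb1-E112K*, and 14377 to 43714 in all others. The slope of log2 level, relative to the WT mean, on log2 gene length was from -0.04 to 0.07 in WT, reached 0.36 in *htb1-D67N*, 0.35 in *htb1-E75Q*, 0.29 in *htb1-G52D* and 0.26 in both *htb1-E112K* and *htb1-E34K*, and was -0.08 and -0.09 in the other 2 *htb1-E34K* libraries. Each comparison set the 3 libraries of 1 genotype against the same 3 of WT, so that the comparisons share their controls.

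In WT, subunit mRNAs of the same enzyme were present at very different levels. FPKM, the fragments of a gene scaled by transcript length and mapped reads, allows levels of different genes to be compared. The highest member was *rpb6*, a common subunit that helps to hold the core together, at 147 ± 4.12 FPKM (SD, n = 3), followed by *rpb10*, a small common subunit of the assembly platform, at 119 ± 6.34 FPKM. Next came *rpa12*, the small polymerase I subunit that takes part in RNA cleavage, at 92.2 ± 10.4 FPKM, and *rpc40*, at 58.7 ± 10.8 FPKM. In FPKM, *rpb6* lay above every value of *rpb10* in every WT library. So did *rpb10* against *rpa12*, *rpa12* against *rpc40* and *rpc40* against the next in order, *rpc11*. However, *rpa2* in WT replicate 3, at 55.5 FPKM, reached into the range of *rpc40*. Below them, from *rpc11* at 44.03 ± 5.45 FPKM down to *rpc31* at 4.88 ± 1.33 FPKM, each gene overlapped its neighbour in this order. The polymerase III genes *rpc82* and *rpc1*, at 2.67 ± 0.739 FPKM and 1.89 ± 0.914 FPKM, overlapped each other and lay apart from *rpc31* above and *rpc25* below. The order of the means differed in part when counts scaled to library size (CPM) were divided by gene length. On that scale *rpb10*, at a WT mean of 211 CPM per kb, lay above *rpb6*, at 197. *rpa43* stood at rank 5 in place of 7, above *rpc11* and *rpa2*, while *rpa12* and *rpc40* kept ranks 3 and 4.

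At the other end, *nuc1*, the largest polymerase I subunit and a part of its catalytic centre, was the lowest member with counts, at 0.930, 0.800 and 1.40 FPKM in the 3 WT libraries. It overlapped *rpc25*, the polymerase III stalk subunit, at 1.19, 1.19 and 1.22 FPKM. The partner of *nuc1* in the catalytic centre, *rpa2*, stood at 32.2, 32.2 and 55.5 FPKM, which gave ratios of *rpa2* to *nuc1* of 34.6, 40.2 and 39.6. The catalytic pairs of the other enzymes were far closer: the ratio of *rpb1* to *rpb2* was 2.19, 2.63 and 2.91, and that of *rpc2* to *rpc1* was 2.79, 3.23 and 2.44. By class, the median of the WT means was 37.8 FPKM for the 4 polymerase I genes with counts, 43.3 for the 2 genes of polymerases I and III, 32.1 for the 5 common genes, 11.4 for the 7 of polymerase II and 5.12 for the 9 of polymerase III. The median over the 5153 genes with counts was 4.01 FPKM.

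**Figure D1:**
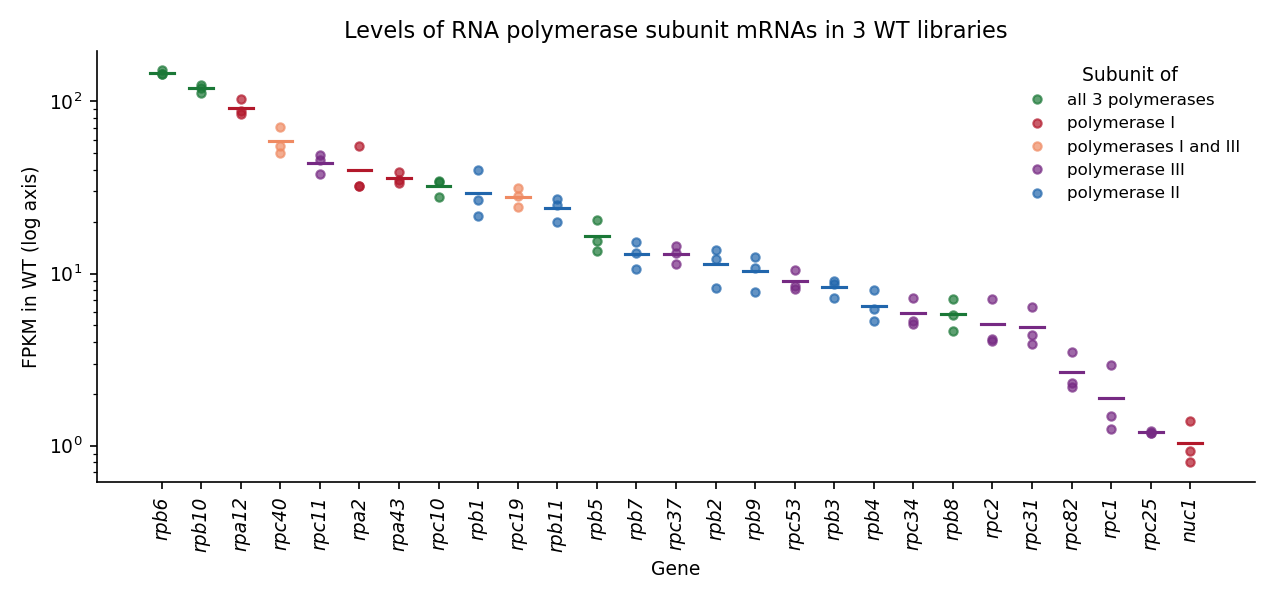
FPKM of the 27 subunit genes with counts in the 3 WT libraries (points) and their mean (bars), on a log axis and coloured by the enzyme that each subunit belongs to. The common genes *rpb6* and *rpb10* were highest, and *nuc1*, the largest polymerase I subunit, was lowest at a mean of 1.04.

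The gene *rpa49*, whose product is a polymerase I subunit that aids initiation and elongation in budding yeast, was listed at 0 counts in all 24 libraries, which allows up to 3 counts in a library. In the ASM294v3 annotation it lies wholly within *sec67* on the other strand, and it is the member left out of all tests. *rpb7* likewise lies wholly within *tcb3* on the other strand, and 47.3% of *rpb3* is overlapped by *trp3*. The counting's use of strand is not given in the sources used here, so that values of *rpb7* and *rpb3* are uncertain to that extent.

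All 27 other members passed the filter on low counts in each of the 7 comparisons, and none of them was called higher in any. A gene was called when edgeR's quasi-likelihood test gave a Benjamini-Hochberg adjusted p under 0.05, over all tested genes, and the change was at least 2-fold. The calls were all towards lower levels and fell mostly in *htb1-E75Q* and *htb1-G52D*. In *htb1-E75Q*, 11 of 27 members (40.7%) were called lower, beside 8.48% of all tested genes. In *htb1-G52D* it was 8 of 27 (29.6%), beside 8.07% of all tested genes, and in *htb1-D67N* 3 of 27 (11.1%), beside 4.48%. A single member was called lower in *htb1-P102L* (3.7% of members, beside 3.48% of all tested genes), in *htb1-E112K* (beside 2.34%) and in the libraries labelled Set1_del (beside 1.3%), which is close to the background or rests on 1 gene. No member was called in *htb1-E34K*, where 0% of tested genes were called lower.

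The absence of members called higher stood beside a background in which higher calls outnumbered lower ones. Of all tested genes, 13% were called higher in *htb1-E75Q*, 13.4% in *htb1-G52D*, 10.8% in *htb1-D67N*, 9.93% in *htb1-P102L*, 7.96% in *htb1-E112K*, 5.16% in the libraries labelled Set1_del and 0.103% in *htb1-E34K*. With edgeR at an unadjusted p under 0.05, the members above WT numbered 2 for the libraries labelled Set1_del, 1 in *htb1-D67N* and 0 in the 5 other comparisons, and DESeq2 also called 0 higher in each comparison. For *htb1-E34K*, 4 members were lower at an unadjusted p under 0.05 in edgeR. DESeq2 called 0 lower there, with 1 at its adjusted p alone, beside 55 genes over all those tested. Shares of all tested genes at the unadjusted p were not counted, so the member counts at that p have no background beside them.

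At the adjusted p alone, without a minimum fold, edgeR found 16 of 27 members lower in *htb1-G52D* (59.3%, beside 19.7% of all tested genes), 11 in *htb1-D67N* (beside 15.4%), 16 in *htb1-E75Q* (beside 16.6%) and 16 in *htb1-P102L* (beside 17.1%). It found 6 in *htb1-E112K* (beside 12.5%), 8 in the libraries labelled Set1_del (beside 11.7%) and 0 in *htb1-E34K* (beside 0%). In the other direction, only *rpb1* in *htb1-D67N* (3.7% of members, beside 20.4% of all tested genes) and *rpb10* in the libraries labelled Set1_del (beside 14.7%) passed. No member did so in *htb1-G52D*, *htb1-P102L*, *htb1-E75Q*, *htb1-E112K* and *htb1-E34K*, where 23.6%, 21%, 19.5%, 15.3% and 0.103% of all tested genes were higher. Neither *rpb1* nor *rpb10* passed in every fit with 1 library left out. Without WT replicate 1, WT replicate 2 or *htb1-D67N* replicate 1, no member was higher in *htb1-D67N*. Without any 1 of the 3 libraries labelled Set1_del, none was higher there. Over all tested genes, those higher fell in these fits too, from 992 to between 702 and 801 in *htb1-D67N*. For the libraries labelled Set1_del they fell from 712 to between 441 and 494. The lower members were 10 in *htb1-P102L* without its replicate 2 or 3, 3 in *htb1-E112K* without WT replicate 1, and 4 for the libraries labelled Set1_del without their replicate 1 or 3. In the same fits, all tested genes that were lower fell from 831 to 554 and 596 in *htb1-P102L*. They fell from 612 to 375 in *htb1-E112K* and from 568 to 302 and 373 for the libraries labelled Set1_del.

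In *htb1-D67N*, a fit with the replicate number as a block found 14 members lower and 3 higher (*rpb1*, *rpc1* and *rpc2*) at the adjusted p alone, beside 20.2% and 25.7% of all tested genes. It still found 3 called lower at 2-fold, beside 4.59%. For *htb1-G52D* and *htb1-P102L*, leaving out the libraries with *ura4* counts gave 8 and 1 members called lower, as did leaving out replicate 3 of each, the libraries without *mat1-Mc* counts. Beside them, 396 and 210 of all tested genes were called lower without the *ura4* libraries, and 359 and 185 without replicate 3. Leaving out WT replicate 3, which serves every comparison, gave 11 in *htb1-E75Q*, 7 in *htb1-G52D*, 3 in *htb1-D67N*, 2 in *htb1-E112K*, 1 each in *htb1-P102L* and the libraries labelled Set1_del, and 0 in *htb1-E34K*. All tested genes called lower in these fits numbered 378 in *htb1-E75Q*, 403 in *htb1-G52D*, 253 in *htb1-D67N* and 135 in *htb1-E112K*. They numbered 173 in *htb1-P102L*, 87 for the libraries labelled Set1_del and 0 in *htb1-E34K*.

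**Figure D2:**
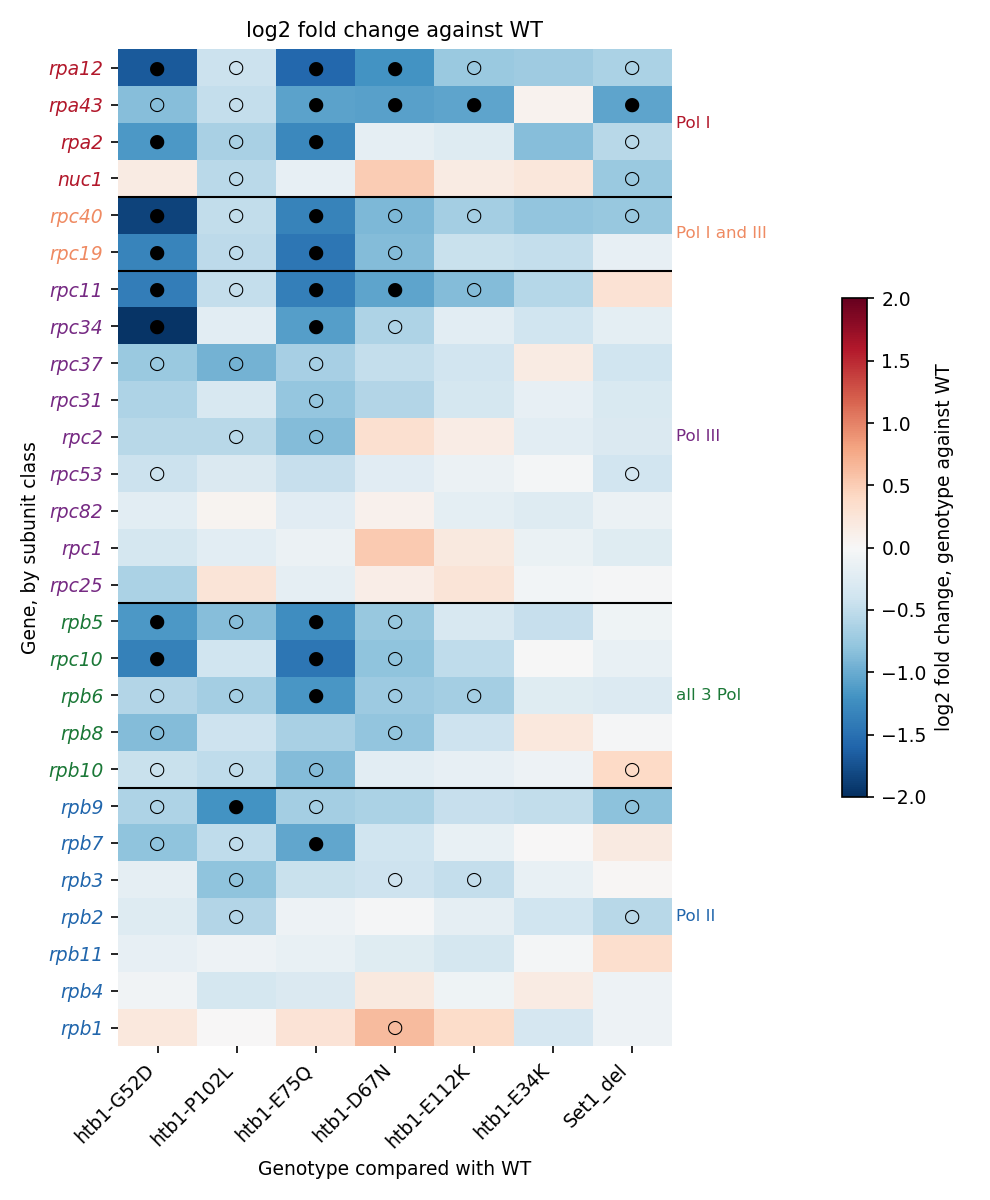
Log2 fold change of the 27 tested subunit genes (rows, by the enzyme they belong to) in each genotype against WT (columns), with blue for lower and red for higher. Filled circles mark genes with an adjusted p under 0.05 and at least a 2-fold change and open circles genes with an adjusted p under 0.05 alone, and the filled ones lie mostly in the columns of *htb1-G52D* (8) and *htb1-E75Q* (11), while *htb1-P102L* holds as many circles of both kinds as each of these (16).

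These changes are measured relative to the bulk of the transcriptome. With scaling by TMM, the log2 fold changes of the tested genes had medians between 0.01 and 0.09 in the 7 comparisons. With scaling by total counts the median was 0.74 in *htb1-E75Q*, 0.77 in *htb1-G52D*, 0.52 in *htb1-E34K*, 0.48 in *htb1-D67N*, 0.41 in *htb1-E112K*, 0.40 in *htb1-P102L* and 0.21 for the libraries labelled Set1_del. The members' median was -0.62 in *htb1-G52D* with TMM and 0.06 with total counts, -0.32 and 0.04 in *htb1-E112K*, and -0.17 and 0.24 in *htb1-E34K*, so that its sign flips between the scalings in these 3 genotypes. It kept its sign in *htb1-E75Q* (-0.78 and -0.14), *htb1-P102L* (-0.48 and -0.10) and *htb1-D67N* (-0.41 and -0.01), and was -0.20 and 0.00 for the libraries labelled Set1_del. No called member changed sign, but 6 of the lower values at the adjusted p alone were above 0 with total counts, those of *rpb10* (0.22), *rpb9* (0.06), *rpb6* (0.04) and *rpc53* (0.25) in *htb1-G52D*, of *rpb9* in *htb1-E75Q* (0.02) and of *rpb3* in *htb1-D67N* (0.01).

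A change of scaling shifts all genes of a library alike. The distance between the members and the other genes therefore has to stay nearly the same, and its agreement is no further evidence. The members' median minus that of all tested genes was -0.86 in *htb1-E75Q* with TMM and -0.89 with total counts, -0.71 and -0.70 in *htb1-G52D*, -0.48 and -0.49 in *htb1-D67N*, and -0.51 and -0.50 in the *htb1-P102L* mutant. It was -0.36 and -0.37 in *htb1-E112K*, -0.26 and -0.27 in *htb1-E34K*, and -0.21 and -0.21 for the libraries labelled Set1_del. With total counts, 3 members were called lower in *htb1-G52D* (*rpa12*, *rpc34* and *rpc40*, beside 1.12% of all tested genes) and 0 in the 6 other comparisons, and *rpb1* was called higher in *htb1-D67N* (beside 18.1%). The levels that follow are in CPM, counts scaled to the TMM-adjusted size of each library, which compare libraries for 1 gene but not genes of different length.

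Polymerase I subunits were among the members with the largest falls. *rpa12* had 119, 117 and 116 CPM in WT, 44.1, 32.5 and 42.5 in *htb1-E75Q*, 38.6, 35.1 and 35.4 in *htb1-G52D* and 51.4, 55.7 and 39.2 in *htb1-D67N*. It had 59.3, 76.7 and 69.5 CPM in *htb1-E112K*, 87.2, 88.7 and 80.3 in *htb1-P102L*, 51.3, 71.6 and 87.7 in *htb1-E34K* and 66.7, 71.4 and 77.8 in the libraries labelled Set1_del. All 3 libraries of every other genotype lay below all 3 of WT. The fall was -1.69 ± 0.13 on the log2 scale in *htb1-G52D* (log2 fold change ± SE, edgeR adjusted p = 2.91e-05), -1.57 ± 0.21 in *htb1-E75Q* (edgeR adjusted p = 0.000105) and -1.20 ± 0.15 in *htb1-D67N* (edgeR adjusted p = 0.000232), and with total counts these were -1.01, -0.95 and -0.84. In *htb1-E34K* the value was -0.71 and did not pass (edgeR adjusted p = 0.174).

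*rpa43*, which with its partner forms the polymerase I stalk and in budding yeast binds the initiation factor Rrn3, was called in 4 comparisons, 1 of them that of the libraries labelled Set1_del, and in 3 among the H2B mutants, as were *rpa12* and *rpc11*. It had 51.1, 46.8 and 36.6 CPM in WT, 23.9, 22.2 and 14.9 in the *htb1-D67N* mutant, 22.2, 22.01 and 20.4 in *htb1-E75Q*, 17.4, 22.4 and 23.6 in *htb1-E112K* and 18.3, 19.2 and 23.98 in the libraries labelled Set1_del. It had 25.7, 33.3 and 35.9 CPM in the *htb1-P102L* mutant, 23.6, 24.2 and 26.3 in *htb1-G52D* and 36.5, 51.5 and 49.5 in *htb1-E34K*. Only *htb1-E34K* overlapped WT. The change was -1.07 ± 0.19 in *htb1-E75Q* (edgeR adjusted p = 0.000919), -1.08 ± 0.20 in *htb1-D67N* (edgeR adjusted p = 0.00192), -1.06 ± 0.15 for the libraries labelled Set1_del (edgeR adjusted p = 0.00073) and -1.05 ± 0.17 in *htb1-E112K* (edgeR adjusted p = 0.00191), where in the last 2 comparisons *rpa43* was the only member called. All 4 calls sat close to the 2-fold threshold. Without WT replicate 1 the values were -0.97 for the libraries labelled Set1_del, -0.95 in *htb1-E112K* and -0.96 in *htb1-E75Q*, and the calls were lost, as they were without Set1_del replicate 1 (-0.997), without *htb1-E112K* replicate 1 (-0.94) and without *htb1-D67N* replicate 3 (-0.90). The *htb1-E112K* count was 2 without WT replicate 3, where *rpc11* passed too.

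The catalytic pair of polymerase I was called in part: *rpa2* in 2 comparisons and *nuc1* in none. *rpa2*, the second-largest subunit, had 172, 176 and 246 CPM in WT, 96.99, 85.9 and 84.5 in *htb1-G52D*, 95.8, 58.98 and 88.4 in *htb1-E75Q* and 137, 125 and 111 in *htb1-P102L*. It had 151, 162 and 185 CPM in *htb1-D67N*, 181, 166 and 140.4 in *htb1-E112K*, 89.6, 102.1 and 129 in *htb1-E34K* and 122, 134 and 128 in the libraries labelled Set1_del. It was called lower in *htb1-E75Q* (-1.29 ± 0.26, edgeR adjusted p = 0.00196) and in *htb1-G52D* (-1.15 ± 0.17, edgeR adjusted p = 0.000837), the latter not without WT replicate 3 (-0.97), the highest of the WT libraries and one of those with *ura4* counts.

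*nuc1* had 7.06, 6.17 and 8.79 CPM in WT, 4.39, 10.3 and 5.19 in *htb1-E75Q*, 11.2, 5.54 and 7.83 in *htb1-G52D* and 4.97, 5.20 and 4.78 in the *htb1-P102L* mutant. It had 7.39, 7.89 and 14.4 CPM in *htb1-D67N*, 9.51, 7.91 and 6.75 in *htb1-E112K*, 16.8, 3.96 and 4.36 in *htb1-E34K* and 3.70, 5.10 and 3.74 in the libraries labelled Set1_del. A single library was far above its group in *htb1-E75Q*, *htb1-D67N* and *htb1-E34K*, and these libraries (*htb1-E75Q* replicate 2, *htb1-D67N* replicate 3 and *htb1-E34K* replicate 1) also had the steepest slope on gene length of their groups. *nuc1* was lower at the adjusted p alone in the libraries labelled Set1_del (-0.74 ± 0.20, edgeR adjusted p = 0.0177) and in *htb1-P102L* (-0.54 ± 0.18, edgeR adjusted p = 0.0326). The ratio of *rpa2* to *nuc1* in FPKM, which does not depend on the scaling of a library, was 12.2, 21.98 and 15.3 in the 3 *htb1-G52D* libraries, 26.8, 29.6 and 29.3 in *htb1-E112K*, 30.8, 8.11 and 23.95 in those of *htb1-E75Q* and 28.9, 29.04 and 18.2 in those of *htb1-D67N*, all below the WT libraries. It was 38.9, 33.9 and 32.9 in *htb1-P102L*, 7.56, 36.6 and 41.8 in *htb1-E34K* and 46.6, 37.1 and 48.4 in the libraries labelled Set1_del.

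The 2 subunits shared by polymerases I and III pair with each other in the assembly platform of both enzymes, and both fell in *htb1-E75Q* and *htb1-G52D*. *rpc40* had 90.6, 101 and 106 CPM in WT, 39.7, 29.8 and 48.7 in *htb1-E75Q*, 29.3, 24.5 and 28.9 in *htb1-G52D* and 52.2, 53.3 and 46.8 in *htb1-D67N*. It had 63.7, 72.1 and 72.3 CPM in *htb1-P102L*, 58.6, 61.3 and 61.8 in *htb1-E112K*, 37.1, 58.6 and 73.6 in *htb1-E34K* and 50.8, 59.7 and 56.6 in the libraries labelled Set1_del, and every library of each genotype was below all 3 of WT. In *htb1-G52D* the fall was -1.84 ± 0.14 (edgeR adjusted p = 2.91e-05), and it was called under each of the 16 alternatives tried. In *htb1-E75Q* it was -1.34 ± 0.22 (edgeR adjusted p = 0.000614), and at the adjusted p alone *rpc40* passed in all comparisons but that of *htb1-E34K*.

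*rpc19* had 21.2, 27.7 and 20.2 CPM in WT, 8.82, 8.23 and 8.45 in *htb1-E75Q*, 10.2, 8.59 and 8.76 in *htb1-G52D* and 12, 12.01 and 12.03 in *htb1-D67N*. It had 14.1, 16.2 and 16.9 CPM in *htb1-P102L*, 12.1, 18.6 and 18.9 in *htb1-E112K*, 11.1, 19.7 and 17.8 in *htb1-E34K* and 20.2, 19.6 and 19.2 in the libraries labelled Set1_del. No library of these 7 genotypes reached the lowest WT library, although Set1_del replicate 1 came within rounding of it. The fall was -1.45 ± 0.19 in *htb1-E75Q* (edgeR adjusted p = 0.000124) and -1.32 ± 0.17 in *htb1-G52D* (edgeR adjusted p = 0.000377). In the libraries labelled Set1_del the value was -0.16, beside -0.76 for *rpc40*.

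Of the 9 polymerase III genes, 2 were called. *rpc34*, a part of the trimer that polymerase III uses to open promoters together with TFIIIB, had 9.96, 10.7 and 11.7 CPM in WT, 5.998, 5.10 and 4.10 in *htb1-E75Q*, 3.38, 1.96 and 2.85 in *htb1-G52D* and 5.89, 7.49 and 6.82 in *htb1-D67N*. It had 7.64, 10.3 and 9.34 CPM in *htb1-P102L*, 9.64, 7.91 and 9.79 in *htb1-E112K*, 8.17, 8.14 and 7.68 in *htb1-E34K* and 8.35, 9.76 and 8.69 in the libraries labelled Set1_del. Its fall in *htb1-G52D*, -1.96 ± 0.23 (edgeR adjusted p = 0.000207), was the largest of any member in any comparison and was called under each of the 16 alternatives tried, on 36 to 116 counts in a *htb1-G52D* library. In *htb1-E75Q* it was -1.10 ± 0.22 (edgeR adjusted p = 0.00223), and -0.96 and not called without *htb1-E75Q* replicate 3. Its partners in the trimer, *rpc82* and *rpc31*, were not called: *rpc82* stood at -0.22 and -0.23 in these 2 genotypes and *rpc31* at -0.62 and -0.78, of which only the last passed the adjusted p.

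*rpc11*, the polymerase III subunit for RNA cleavage and termination, had 31.5, 30.1 and 20.4 CPM in WT, 11.1, 9.44 and 11.7 in *htb1-E75Q*, 13.8, 8.48 and 8.95 in *htb1-G52D* and 14.99, 13.8 and 9.002 in *htb1-D67N*. It had 21.2, 18.8 and 17.96 CPM in *htb1-P102L*, 9.84, 18.1 and 16.2 in *htb1-E112K*, 9.36, 22.7 and 21.8 in *htb1-E34K* and 29.7, 30.1 and 36.4 in the libraries labelled Set1_del. The last of these, *htb1-P102L* and *htb1-E34K* overlapped WT. The fall was -1.39 ± 0.23 in *htb1-G52D* (edgeR adjusted p = 0.00146), -1.36 ± 0.21 in *htb1-E75Q* (edgeR adjusted p = 0.000399) and -1.06 ± 0.22 in *htb1-D67N* (edgeR adjusted p = 0.00437). The call in *htb1-D67N* was lost without WT replicate 1 (-0.97) and without *htb1-D67N* replicate 3 (-0.87), where *rpb8* was called instead.

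The largest polymerase III subunit, *rpc1*, had 9.55, 8.17 and 15.6 CPM in WT, 10.2, 11.7 and 9.25 in *htb1-E75Q*, 11.8, 6.69 and 7.49 in *htb1-G52D* and 9.42, 10.4 and 8.77 in the *htb1-P102L* mutant. It had 10.5, 11.1 and 23.98 CPM in *htb1-D67N*, 16.1, 10.7 and 10.8 in *htb1-E112K*, 12.8, 7.74 and 9.31 in *htb1-E34K* and 8.30, 9.96 and 8.61 in the libraries labelled Set1_del. All 7 genotypes overlapped WT, and no comparison passed the adjusted p, except that of *htb1-D67N* in the fit with the replicate block (0.48, edgeR adjusted p = 0.0223). Its partner *rpc2* was lower at the adjusted p alone in *htb1-E75Q* (-0.86) and *htb1-P102L* (-0.55), and higher in *htb1-D67N* with the replicate block (0.34, edgeR adjusted p = 0.0443). Among the rest, *rpc37* passed the adjusted p in *htb1-G52D* (-0.74), *htb1-P102L* (-0.95) and *htb1-E75Q* (-0.66), and its partner *rpc53* in *htb1-G52D* (-0.42) and the libraries labelled Set1_del (-0.38). *rpc25* and *rpc82* passed in no comparison.

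Of the 5 common subunits, *rpb5*, which sits in the jaw of the enzymes, and *rpc10*, a small zinc-binding subunit, were called in *htb1-G52D* and *htb1-E75Q*. *rpb5* had 18.2, 21.3 and 22.9 CPM in WT, 12.3, 7.34 and 8.24 in *htb1-G52D*, 9.04, 8.89 and 8.60 in *htb1-E75Q* and 10.1, 12.5 and 11.5 in *htb1-P102L*. It had 10.01, 13.8 and 11.3 CPM in *htb1-D67N*, 16.3, 16.1 and 16.5 in *htb1-E112K*, 13.2, 17.02 and 14.1 in *htb1-E34K* and 18.4, 19.2 and 18.5 in the libraries labelled Set1_del, and only the last overlapped WT. The fall was -1.24 ± 0.18 in *htb1-E75Q* (edgeR adjusted p = 0.000269) and -1.15 ± 0.21 in *htb1-G52D* (edgeR adjusted p = 0.00207).

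*rpc10* had 25.9, 21.5 and 21.5 CPM in WT, 7.92, 9.71 and 7.96 in *htb1-E75Q*, 11.8, 7.34 and 7.64 in *htb1-G52D* and 11.7, 14.7 and 11.2 in *htb1-D67N*. It had 19.4, 17.5 and 14.7 CPM in *htb1-P102L*, 12.5, 18.5 and 16.5 in *htb1-E112K*, 19.3, 25.6 and 22.2 in *htb1-E34K* and 18.5, 21.2 and 19.95 in the libraries labelled Set1_del. Only *htb1-E34K* overlapped WT. The fall was -1.44 ± 0.19 in *htb1-E75Q* (edgeR adjusted p = 0.000106) and -1.35 ± 0.21 in *htb1-G52D* (edgeR adjusted p = 0.000825). Of the 2 most abundant members, *rpb6* was called in *htb1-E75Q* (-1.17 ± 0.22, edgeR adjusted p = 0.00149) and passed the adjusted p in 4 more comparisons, whereas *rpb10* was lower at the adjusted p alone in *htb1-E75Q* (-0.86), *htb1-P102L* (-0.51) and *htb1-G52D* (-0.45) and higher in the libraries labelled Set1_del (0.39 ± 0.11, edgeR adjusted p = 0.0183). *rpb8* was lower at the adjusted p alone in *htb1-G52D* (-0.87) and *htb1-D67N* (-0.79).

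Genes of polymerase II only were called in 2 comparisons, 1 gene in each. *rpb9*, the polymerase II counterpart of *rpa12* and *rpc11*, had 14.4, 9.17 and 10.2 CPM in WT and 4.27, 6.13 and 3.99 in *htb1-P102L*, where it was the member called (-1.20 ± 0.22, edgeR adjusted p = 0.00144). Without WT replicate 1, the highest of the WT libraries, the value was -0.99 and the call was lost, while *rpc37* was called in its place. *rpb7*, a stalk subunit, was called in *htb1-E75Q* (-1.04 ± 0.19, edgeR adjusted p = 0.00111), but not without WT replicate 1 (-0.98) or *htb1-E75Q* replicate 1 (-0.99). At the adjusted p alone *rpb9* was also lower in *htb1-G52D* (-0.61), *htb1-E75Q* (-0.68) and the libraries labelled Set1_del (-0.83), and *rpb7* in *htb1-G52D* (-0.80) and *htb1-P102L* (-0.51). The partner of *rpb7*, *rpb4*, passed in no comparison and stood at -0.29 in *htb1-E75Q*. *rpb11* also passed in none, and its partner *rpb3* was lower at the adjusted p alone in *htb1-P102L* (-0.80), *htb1-E112K* (-0.47) and *htb1-D67N* (-0.41).

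The largest polymerase II subunit, *rpb1*, whose C-terminal repeats couple transcription with RNA processing, had 198, 163 and 246 CPM in WT, 307, 190.4 and 239.5 in *htb1-E75Q*, 193, 266 and 245 in *htb1-G52D* and 201, 214 and 187 in the *htb1-P102L* mutant. It had 289, 284 and 326 CPM in *htb1-D67N*, 339, 218 and 211 in *htb1-E112K*, 158, 133 and 178 in *htb1-E34K* and 175, 183 and 183 in the libraries labelled Set1_del. Only *htb1-D67N* did not overlap WT, and there it was higher at the adjusted p alone (0.63 ± 0.18, edgeR adjusted p = 0.0178), with 1.03 under total-count scaling and 0.22 after a correction for gene length (edgeR adjusted p = 0.299). Its catalytic partner *rpb2* was lower at the adjusted p alone in *htb1-P102L* (-0.58) and the libraries labelled Set1_del (-0.55).

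**Figure D3:**
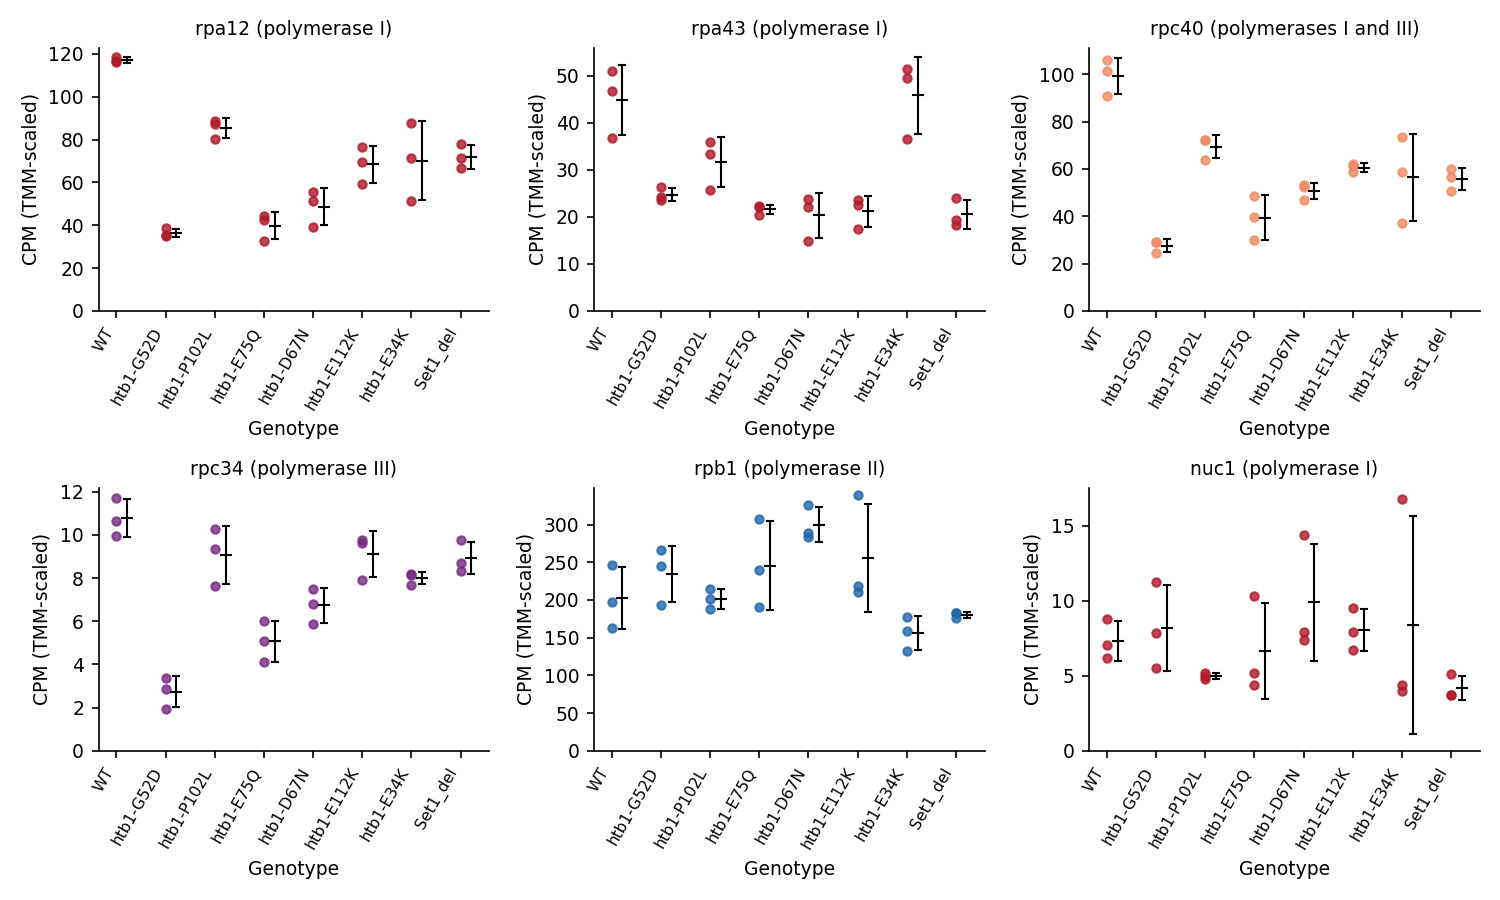
CPM of *rpa12*, *rpa43*, *rpc40*, *rpc34*, *rpb1* and *nuc1* in the 3 libraries of each genotype (points), with the mean ± SD beside them in black. Every *rpa12* and *rpc40* point outside WT lies below the WT points, whereas *rpb1* and *nuc1* overlap WT in most genotypes.

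By class, the members of polymerase I, of polymerases I and III and of all 3 polymerases had the lowest medians, and those of polymerase II the highest, in *htb1-G52D* and *htb1-E75Q*. In *htb1-G52D* the median log2 fold change was -1.58 for the 2 genes of polymerases I and III, -1.002 for the 4 of polymerase I, -0.87 for the 5 common genes, -0.62 for the 9 of polymerase III and -0.18 for the 7 of polymerase II, where with total counts the last 2 were 0.08 and 0.49. In *htb1-E75Q* it was -1.39, -1.18, -1.17, -0.66 and -0.29 in the same order, with 0.47 for polymerase II under total counts. In *htb1-P102L* the classes lay closer together, from -0.51 for the common genes to -0.29 for polymerase III (0.07 under total counts), with -0.51 for polymerase II. For the libraries labelled Set1_del the polymerase I median was -0.69, and all 4 of its tested genes were lower at the adjusted p alone, while the medians of the common genes and of polymerase II were -0.08 and -0.10 (0.12 and 0.11 under total counts).

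Within a single library, a change of scaling nearly cancels out of the distance between classes. The median log2 level of the polymerase II genes minus that of the polymerase I genes, both relative to the WT mean, was 0.16, -0.08 and -0.07 in the 3 WT libraries, 0.90, 0.72 and 0.78 in *htb1-G52D* and 0.75, 1.29 and 0.56 in *htb1-E75Q*. It was 0.36, 0.40 and 0.52 in *htb1-D67N*, 0.53, 0.17 and 0.17 in *htb1-E112K*, 0.45, 0.41 and 0.34 in *htb1-E34K* and 0.86, 0.50 and 0.59 in the libraries labelled Set1_del. These genotypes lay above WT in every library, *htb1-E112K* only narrowly, whereas *htb1-P102L*, at 0.08, 0.08 and -0.03, overlapped WT. The difference from polymerase II to polymerase III was smaller, at 0.30, 0.54 and 0.31 in *htb1-G52D* and 0.47, 0.61 and 0.11 in *htb1-E75Q*, against 0.26, -0.14 and -0.07 in WT. These class values are a description without a test, and a difference between genotypes was not tested.

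A ratio of 2 genes needs no scaling of libraries. The FPKM ratio of *rpb1* to *rpa2*, a pair picked after their values were seen, was 0.828, 0.669 and 0.721 in WT, 1.43, 2.23 and 2.08 in *htb1-G52D*, 2.31, 2.33 and 1.95 in *htb1-E75Q* and 1.38, 1.26 and 1.27 in *htb1-D67N*. It was 1.05, 1.23 and 1.21 in *htb1-P102L*, 1.35, 0.947 and 1.08 in *htb1-E112K*, 1.27, 0.935 and 0.994 in *htb1-E34K* and 1.04, 0.982 and 1.03 in the libraries labelled Set1_del. No library outside WT fell into the WT range of this ratio. That of *rpb2* to *rpa2*, the second-largest subunits, was 0.378, 0.255 and 0.248 in WT, 0.575, 0.528 and 0.489 in *htb1-G52D* and 0.613, 1.01 and 0.475 in *htb1-E75Q*, which lay above WT. It was 0.310, 0.310 and 0.276 in *htb1-P102L*, 0.339, 0.285 and 0.275 in *htb1-E112K*, 0.310, 0.258 and 0.383 in *htb1-D67N*, 0.679, 0.281 and 0.287 in *htb1-E34K* and 0.318, 0.289 and 0.267 in the libraries labelled Set1_del, of which all but *htb1-D67N* replicate 3 and *htb1-E34K* replicate 1 fell into the WT range.

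**Figure D4:**
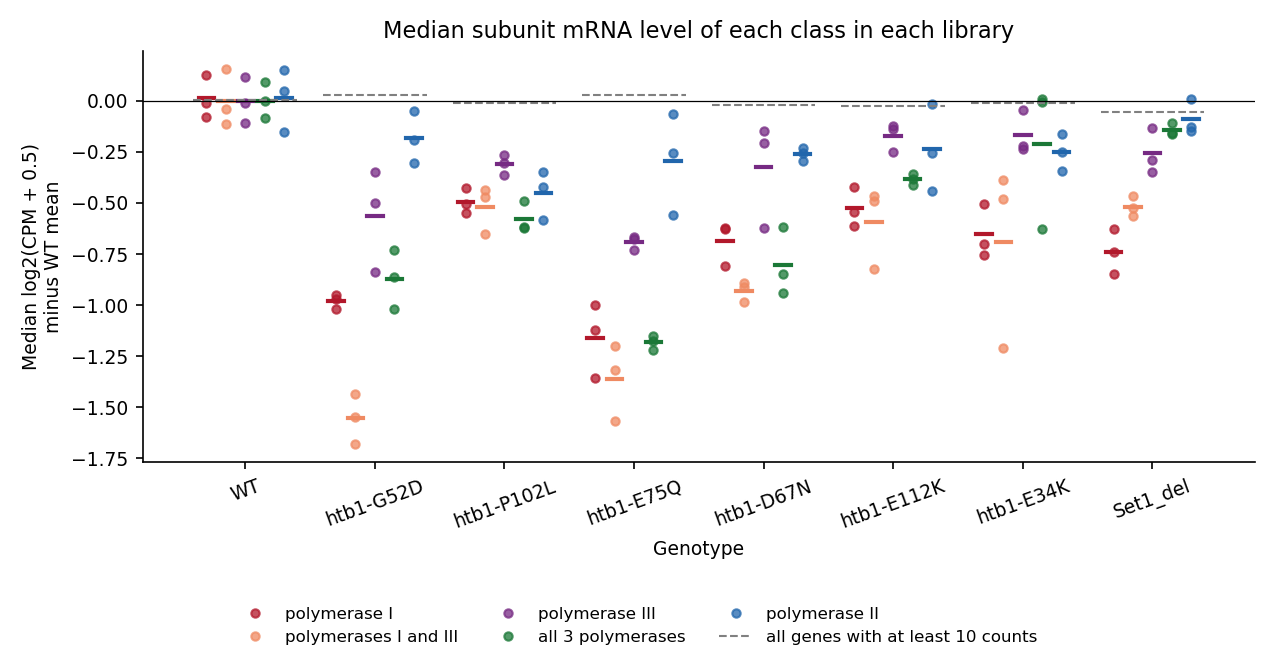
Median log2(CPM + 0.5) of the members of each class minus their WT mean, for every library (points) with the mean over 3 libraries (bars) and the mean for all genes with at least 10 counts in every library (dashed). The genes shared by polymerases I and III sit lowest in *htb1-G52D* and *htb1-E75Q*, followed by those of polymerase I and the common genes, which lie close together in *htb1-E75Q*, and polymerase II genes lie closest to the dashed line there.

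Gene length moved with these results. Over the 27 members, the correlation of log2 fold change with log2 gene length was 0.77 in *htb1-D67N*, 0.69 in *htb1-E112K*, 0.61 in *htb1-E75Q* and 0.49 in *htb1-G52D* (Pearson's r over genes of the same libraries, given as a description). It was 0.20 in *htb1-P102L*, -0.01 in *htb1-E34K* and -0.16 for the libraries labelled Set1_del. Over all genes with a length it was positive in the 7 comparisons, from 0.08 for the libraries labelled Set1_del to 0.28 in *htb1-E75Q*. It was weaker than over the members except in *htb1-E34K* (0.10) and the libraries labelled Set1_del, where the members' values were below 0. The 13 members of up to 1000 bp had a median of -0.73 in *htb1-D67N* and the 7 over 3000 bp one of 0.33, beside -0.19 and 0.41 for all tested genes of those lengths. In *htb1-E75Q* the same members had -1.04 and -0.16, beside -0.33 and 0.56, and in *htb1-G52D* -0.80 and -0.26, beside -0.18 and 0.47. The part of gene length in the members' changes was not tested.

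After a correction of each library for gene length, the members called lower were the same 8 in *htb1-G52D*, beside 6.72% of all tested genes. They numbered 7 in place of 11 in *htb1-E75Q* (beside 6.58%), 1 in place of 3 in *htb1-D67N* (*rpa12*, at -1.03, beside 3.56%) and 0 in place of 1 in *htb1-E112K* (*rpa43*, at -0.97, beside 1.85%). In *htb1-E75Q* the calls of *rpa43* (-0.65), *rpc11* (-0.83), *rpb7* (-0.85), *rpb6* (-0.90) and *rpc10* (-0.92) were lost, that of *rpa2* became larger (-1.71), and *rpc2* was called as well (-1.23). At the adjusted p alone the lower members were 16, 14, 16, 11, 7, 0 and 8 in *htb1-G52D*, *htb1-P102L*, *htb1-E75Q*, *htb1-D67N*, *htb1-E112K*, *htb1-E34K* and the libraries labelled Set1_del. In the same order, 20%, 17.3%, 14.9%, 15.7%, 13.6%, 0.146% and 12.4% of all tested genes were lower.

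**Figure D5:**
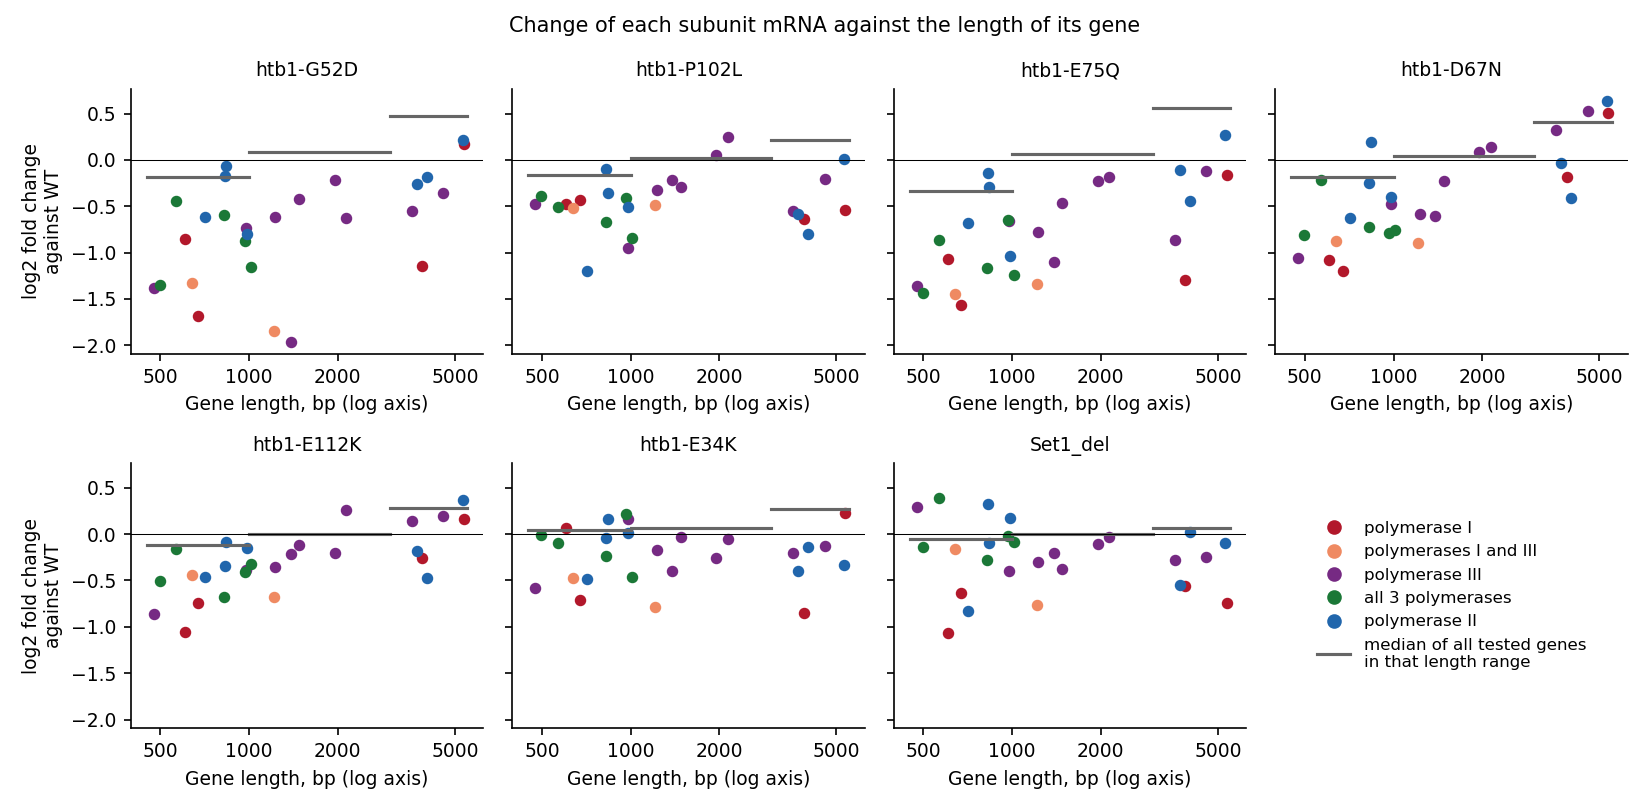
Log2 fold change against WT of each of the 27 tested subunit genes against the length of its gene (log axis), coloured by class, for the 7 genotypes. Grey lines give the median of all tested genes up to 1000 bp, up to 3000 bp and above, and in *htb1-G52D* and *htb1-E75Q* most members lie below the grey line of their own length range.

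Of the 3 subunits outside the pathway term, *ker1*, the fission yeast partner of *rpa43* in the polymerase I stalk, was the one that passed. It was called lower in *htb1-G52D* (-1.07 ± 0.24, edgeR adjusted p = 0.00556) and passed the adjusted p alone in *htb1-E112K* (-0.96 ± 0.18), *htb1-E75Q* (-0.92 ± 0.21) and *htb1-D67N* (-0.71 ± 0.19). *rpa34*, the partner of *rpa49*, stood between 0.35 and 0.98 in the 7 comparisons and *rpc17*, of the polymerase III stalk, between -0.26 and 0.38, and neither passed in any.

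Among the factors that direct these enzymes to their genes or act on them, the 3 genes called lower were *sfc3*, *sfc6* and *ssu72*, all in *htb1-D67N*. Higher calls also outnumbered lower ones over all tested genes, at 13% in *htb1-E75Q*, 13.4% in *htb1-G52D* and 7.96% in *htb1-E112K*, and in the short lists they come to a few genes each. Of the 7 polymerase I factors, of which 6 were tested for the libraries labelled Set1_del, *rrn5* was called higher in *htb1-G52D* (1.52 ± 0.32, edgeR adjusted p = 0.00462) and *htb1-E75Q* (1.28 ± 0.45, edgeR adjusted p = 0.0406). Of the 11 polymerase III factors, 3 were called higher in *htb1-G52D* (*maf1*, *tbp1* and *bdp1*), 2 in *htb1-E75Q* (*maf1* and *sfc2*) and 2 in *htb1-E112K* (*tbp1* and *bdp1*), while *sfc3* (-1.65 ± 0.31) and *sfc6* (-1.15 ± 0.23), subunits of TFIIIC, were the lower ones in *htb1-D67N*. *maf1*, which represses polymerase III when nutrients or growth signals fail, rose by 1.54 ± 0.20 in *htb1-G52D* (edgeR adjusted p = 0.000426) and 1.31 ± 0.26 in *htb1-E75Q* (edgeR adjusted p = 0.00197).

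Of the 31 basal transcription factors of polymerase II, 4 were called higher in *htb1-E75Q* (12.9%, beside 13% of all tested genes) and 7 in *htb1-G52D* (22.6%, beside 13.4%). *tbp1*, given above with the polymerase III factors, is also in this list and among these 7, so that it counts in both lists. *sua7*, which encodes TFIIB, was called higher in *htb1-D67N* (2.05 ± 0.18, edgeR adjusted p = 1.59e-05), *htb1-G52D* (1.85 ± 0.17), *htb1-E112K* (1.67 ± 0.24) and *htb1-P102L* (1.36 ± 0.21). Among the 9 polymerase II elongation, assembly and CTD genes found in the tables, *fcp1*, the CTD phosphatase, was called higher in *htb1-G52D* (1.15 ± 0.27) and *htb1-E75Q* (1.26 ± 0.33), and *ssu72* lower in *htb1-D67N* (-1.14 ± 0.21). Of the 2 genes of the mitochondrial polymerase, a separate single-subunit enzyme, *rpo41* was called higher in *htb1-E75Q* (1.04 ± 0.26).

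Lower calls prevailed in the lists of the ribosome and of nucleotide metabolism in *htb1-E75Q* and *htb1-G52D*, although with total counts they were few. Of 175 tested ribosome genes, 77 were called lower in *htb1-E75Q* (44%, beside 8.48% of all tested genes) and 84 in *htb1-G52D* (48%, beside 8.07%). With total counts these were 4 and 1 lower (beside 1.42% and 1.12% of all tested genes), and 3 and 5 higher (beside 28.5% and 33.9%). The list's median was -0.98 and -0.95 in *htb1-G52D* and *htb1-E75Q*, beside -0.62 and -0.78 for the members and 0.09 and 0.08 for all tested genes. It was -0.80 in *htb1-D67N* with 42 called lower (24%, beside 4.48% of all tested genes) and -0.66 in *htb1-E112K* with 22 (12.6%, beside 2.34%). In *htb1-P102L* it was -0.48 with 4 called lower (2.29%, beside 3.48%). For the libraries labelled Set1_del it was -0.26 with 1 (0.571%, beside 1.3%), so that both shares lay below those of all tested genes. In *htb1-E34K* it was -0.34 (0.01 with total counts). Of 70 tested ribosome biogenesis genes, 23 (32.9%) were called lower and 1 higher in *htb1-E75Q* (median -0.55, and 0.10 with total counts), against 22 (31.4%) and 2 in *htb1-G52D* (median -0.60, and 0.08 with total counts). The members are also annotated to purine and pyrimidine metabolism, and the 76 tested genes of those terms that are no members had 20 (26.3%) called lower and 3 higher in *htb1-E75Q*, against 18 (23.7%) and 4 in *htb1-G52D*, with medians of -0.50 and -0.35 (0.13 and 0.29 with total counts).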

How the data were processed

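The authors filtered reads with fastp, removed rRNA reads with Bowtie2, aligned the rest to the *S. pombe* genome of Ensembl release 45 with HISAT2 and quantified genes with StringTie. The labels' processing notes also name RSEM and DESeq2. The program that counted reads and its use of strand are not given in the sources used here. The authors deposited raw read counts per gene and library and FPKM in 7 full tables, 1 for each comparison. Their mean FPKM, fold changes, p-values and q-values, and the 7 tables of called genes, were not used. Members and lists were chosen with earlier results of these data known.

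Counts of each genotype and WT, 3 against 3, were tested in edgeR 4.0.16 (R 4.3.3) after filterByExpr with TMM scaling, glmQLFit and glmQLFTest, over all tested genes. CPM used the TMM-scaled library size over 24 libraries. FPKM served for levels between genes. Gene lengths and overlaps were worked out from gene and exon coordinates of the ASM294v3 annotation, matched by locus tag for 5109 of 5195 genes. Its build may differ from that of the files, and lengths and overlaps are uncertain to that extent. For the same reason no sequences or coordinates are printed from it. Genes were called at an adjusted p under 0.05 and at least 2-fold. The scripts were tested on simulated data. Python 3.11.15, NumPy 2.4.6, pandas 2.3.3 and matplotlib 3.10.9 did the rest.

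Values in every library were given for members called in at least 2 comparisons and for *nuc1*, *rpb1* and *rpc1*. In each comparison the 2 called members with the largest falls were named with their statistics, and *rpb1* was singled out with *rpa2* in a ratio after its values were seen. Labels give replicate numbers 1 to 3 and no shared batch. Deviations of same-numbered libraries from their group means correlated at 0.14, 0.12 and 0.30 for *htb1-D67N* and WT. For no other genotype were all of them positive. The main fit of *htb1-D67N* was unpaired all the same, and the fit with the replicate number as a block is given beside it. Alternatives were DESeq2 1.42.0, total-count scaling, median-ratio size factors, limma 3.58.1 on log2(FPKM + 1), a gene-length loess offset with a span of 0.5, no filter, a minimum of 10 counts per library, the replicate number as a block, a joint fit of all 24 libraries, and each library left out. Fits of *htb1-P102L* and *htb1-G52D* that leave out libraries with *ura4* counts were added after seeing the data. A count of 0 allows up to 3 counts, which covers counting error only.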

Additional observations from a re-analysis of the deposited data

How the results depend on the processing

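Results were given under TMM scaling, the low-count filter and a 2-fold minimum, and 275 of 328 values that answer a comparison changed by less than 1.5 times or 1 SD under the alternatives. Counts that were 0 and stayed 0 are among these 275 and could hardly move. They are those of members called lower in *htb1-E34K* and most of those called higher. None of the 328 values, and none of the named calls, reversed. The members' own median, which is not among them, changed sign with total counts in *htb1-G52D* (0.06), *htb1-E112K* (0.04) and *htb1-E34K* (0.24). At the adjusted p alone, members lower numbered 16 each in *htb1-G52D* and *htb1-P102L*, 11 in *htb1-D67N*, 6 in *htb1-E112K* and 8 for the libraries labelled Set1_del, and 1 each was higher in *htb1-D67N* and for the libraries labelled Set1_del. With total-count scaling, and likewise with limma on log2(FPKM + 1), members called lower numbered 3 in *htb1-G52D* and 0 in *htb1-P102L*, *htb1-E75Q*, *htb1-D67N*, *htb1-E112K* and the libraries labelled Set1_del, and 1 was called higher in *htb1-D67N*. Over all tested genes, total-count scaling called 55, 72, 69, 48, 28 and 35 lower in the same order, and 879 higher in *htb1-D67N*. With limma these were 45, 50, 64, 36, 23 and 20 lower, and 538 higher. With gene-length correction the members called lower numbered 7 for *htb1-E75Q*, 1 for *htb1-D67N* and 0 for *htb1-E112K* (beside 6.58%, 3.56% and 1.85% of all tested genes). The members' median minus that of all tested genes became, with limma, -0.60 in *htb1-E75Q*, -0.50 in *htb1-G52D*, -0.32 in *htb1-D67N*, -0.35 in *htb1-P102L*, -0.23 in *htb1-E112K*, -0.15 in *htb1-E34K* and -0.14 for the libraries labelled Set1_del. With gene-length correction it became -0.76 in *htb1-E75Q*, -0.40 in *htb1-P102L*, -0.34 in *htb1-E34K* and -0.27 for the libraries labelled Set1_del. Leaving out 1 library gave 7 to 10 members called lower in *htb1-G52D*, 9 to 11 in *htb1-E75Q*, 2 to 3 in *htb1-D67N*, 0 to 2 in *htb1-E112K*, 0 to 1 for the libraries labelled Set1_del and 1 in *htb1-P102L*. In the same order, all tested genes called lower numbered 338 to 468, 328 to 490, 224 to 287, 95 to 142, 59 to 87 and 173 to 205. The relative median then ranged from -1.02 to -0.80 in *htb1-E75Q*, -0.82 to -0.73 in *htb1-G52D*, -0.60 to -0.36 in *htb1-D67N*, -0.54 to -0.46 in *htb1-P102L*, -0.34 to -0.29 in *htb1-E112K*, -0.31 to -0.24 in *htb1-E34K* and -0.26 to -0.17 for the libraries labelled Set1_del. The replicate block changed no 2-fold count (8, 1, 11, 3, 1, 0 and 1 lower in *htb1-G52D*, *htb1-P102L*, *htb1-E75Q*, *htb1-D67N*, *htb1-E112K*, *htb1-E34K* and the libraries labelled Set1_del). With this block, 8.07%, 3.56%, 8.48%, 4.59%, 2.38%, 0.226% and 1.3% of all tested genes were called lower, in the same order. The causes of these shifts were not tested. Of 25 named calls, 3 were kept under every alternative, those of *rpa12*, *rpc34* and *rpc40* in *htb1-G52D*. With 3 libraries a genotype, members with few counts, such as *nuc1* at 99 to 172 in WT, are the least precise.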
